A study of Drosophila melanogaster with 2 samples.

Results

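The vacuolar ATPase (V-ATPase) is a rotary proton pump. Its cytosolic V1 sector hydrolyses ATP and turns a rotor in the membrane-embedded V0 sector, which carries protons across the membrane. The pump acidifies lysosomes, endosomes and secretory vesicles in most cells, and in insect Malpighian tubules and midgut it also sits in the plasma membrane, where it energises ion transport. Its genes in the fly carry symbols that begin with Vha. All protein-coding genes with such a symbol in the Ensembl gene models of the dm6 genome were taken, which gave 33 genes of 13945 protein-coding genes on 6 nuclear chromosomes. Of the 33, 7 have a symbol with no copy suffix and are called single-copy here, although VhaAC45 and VhaAC45RP encode the same kind of subunit, and 26 end in a number or letter that marks a paralog. They encode 14 kinds of subunit, 8 of V1, 5 of V0 and 1 accessory protein, and 9 of the 14 are encoded by more than 1 Vha gene. The accessory subunit ATP6AP2, also known as VhaM8.9, has no Vha symbol in these models and was not among them.

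The measurements were chromatin immunoprecipitation and sequencing with an antibody against GFP, in whole wandering larvae of the third instar, both sexes pooled. The strain, named cnc-GFP in the labels, carries a transgenic insertion for a cnc-eGFP fusion and so expresses the bZIP transcription factor Cnc (cap'n'collar, the fly counterpart of Nrf2) with enhanced GFP (eGFP) at its C terminus. There was 1 group of 2 biological replicates and no second condition, so the data say where the tagged factor was found and not what it does to these genes. Larvae were whole, so a strong peak in few cells and a weak peak in many cannot be told apart, and read depth is unknown. The main list was the 6153 peaks of the authors' list thresholded for reproducibility between replicates (irreproducible discovery rate, IDR). These were the 6153 highest of the 30000 peaks called on both replicates pooled. Each replicate also had its own list of 30000 peaks, and a peak of the IDR list need not overlap a peak of both replicates. Peak height is given as the signal value that the authors deposited, a score whose scale differs from list to list, so values are compared within a list and ranks across lists. A gene was counted as having a promoter summit when the highest point of a peak lay within 1000 bp of any of its annotated transcription start sites (TSSs).

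Of the 33 Vha genes, 13 (39.4%, exact 95% binomial interval 22.9 to 57.9, counting error only) had a promoter summit in the IDR list, beside 4449 of 13945 protein-coding genes (31.9%). The share of all genes lay inside the interval of the Vha genes. In the pooled list 23 Vha genes (69.7%) had a promoter summit, beside 56.1% of all genes, and in the whole lists of replicates 1 and 2 it was 22 Vha genes each (66.7%), beside 57.4% and 56.7%. Peak heights were also close to those of other genes. The median signal value of the highest promoter peak was 493 over the 13 Vha genes and 446 over the 4449 genes. With each replicate list taken to its highest 6153 peaks, both replicates gave 13 Vha genes, beside 32.0% of all genes in replicate 1 and 31.2% in replicate 2. The 13 genes of replicate 1 were those of the IDR list, and replicate 2 had VhaM9.7-c in place of Vha44.

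By symbol, 4 of 7 single-copy genes (57.1%, interval 18.4 to 90.1) and 9 of 26 paralogs (34.6%, interval 17.2 to 55.7) had an IDR promoter summit. The intervals overlap over most of their length. Genes are not replicates of a condition, so the difference between these classes was not tested. At least 1 gene had a summit for 7 of the 8 V1 subunits, for 4 of the 5 V0 subunits and for no accessory subunit. The kinds without any were H, c double prime and Ac45. A kind of subunit counted when any of its genes had a summit, so kinds with several genes could count more easily. No share over all genes corresponds to this count. By gene, the counts were 7 of 13 in V1, 6 of 18 in V0 and 0 of 2 accessory genes, beside 31.9% of all protein-coding genes.

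**Figure D1:**
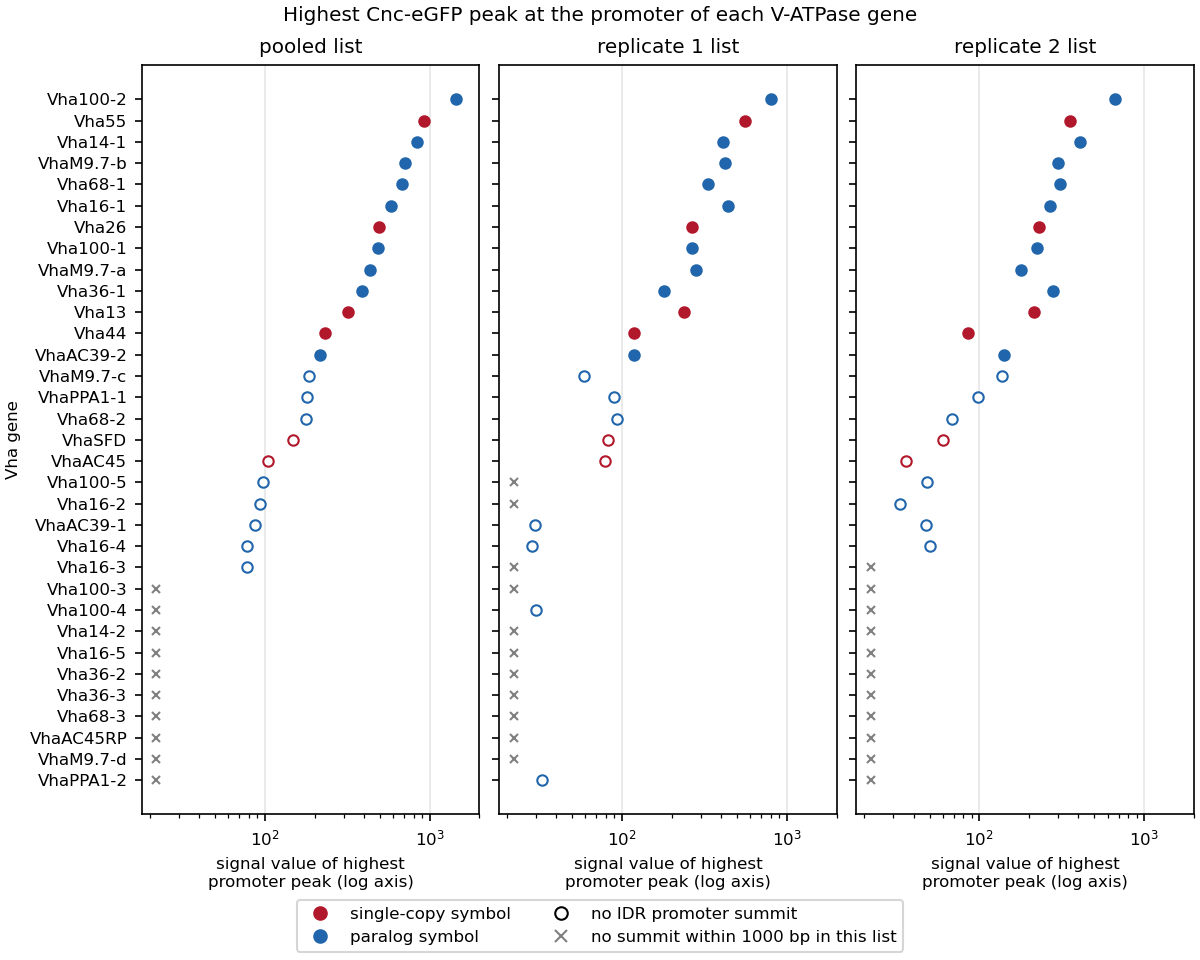
Highest peak with a summit within 1000 bp of a TSS of each of the 33 Vha genes, as its signal value (log axis) in the pooled list and in each replicate list, with genes in the order of the pooled value. Filled points are the 13 genes with an IDR promoter summit, open points genes without, and crosses mark lists with no summit within 1000 bp. The filled points run from 1450 for Vha100-2 to 217 for VhaAC39-2 in the pooled list, and a gene's points in the 3 lists need not belong to the same peak.

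At 8 of the 13 Vha genes the highest summit lay in the short stretch between the Vha TSS and the TSS of a neighbour transcribed the other way. Of the 33 genes, 14 had an opposite-strand protein-coding TSS within 1000 bp upstream, a divergent partner (42.4%, beside 36.2% of all protein-coding genes). Of these 14, 11 had an IDR promoter summit (78.6%), beside 2781 of 5052 divergent genes overall (55.0%). Of the 19 Vha genes without such a partner, 2 had one (10.5%), beside 1668 of 8893 (18.8%). The direction among Vha genes was that of all genes. The split by partner was chosen after the values were seen and was not tested. These 8 were among the 11, and at 10 of the 11 the partner lay within 1000 bp of the same summit. The corresponding shares over all divergent genes with a summit were 79.6% between both TSSs and 92.8% shared with the partner.

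For most of these genes the summit was nearer to the neighbour than to the Vha TSS. The Vha TSS was the nearest coding TSS at 5 of the 13 genes (38.5%), namely Vha13, Vha16-1, Vha68-1, VhaAC39-2 and VhaM9.7-a, beside 68.0% of all genes with a summit. When each summit was given only to the gene of its nearest coding TSS, 5 of 33 Vha genes kept one (15.2%), beside 23.0% of all genes. The order of the Vha share and the overall share therefore turned with this rule. Summits lay upstream of the TSS at 12 of 13 Vha genes (92.3%, beside 81.3% of all genes with a summit), at a median of -174 bp (all genes -142 bp).

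**Figure D2:**
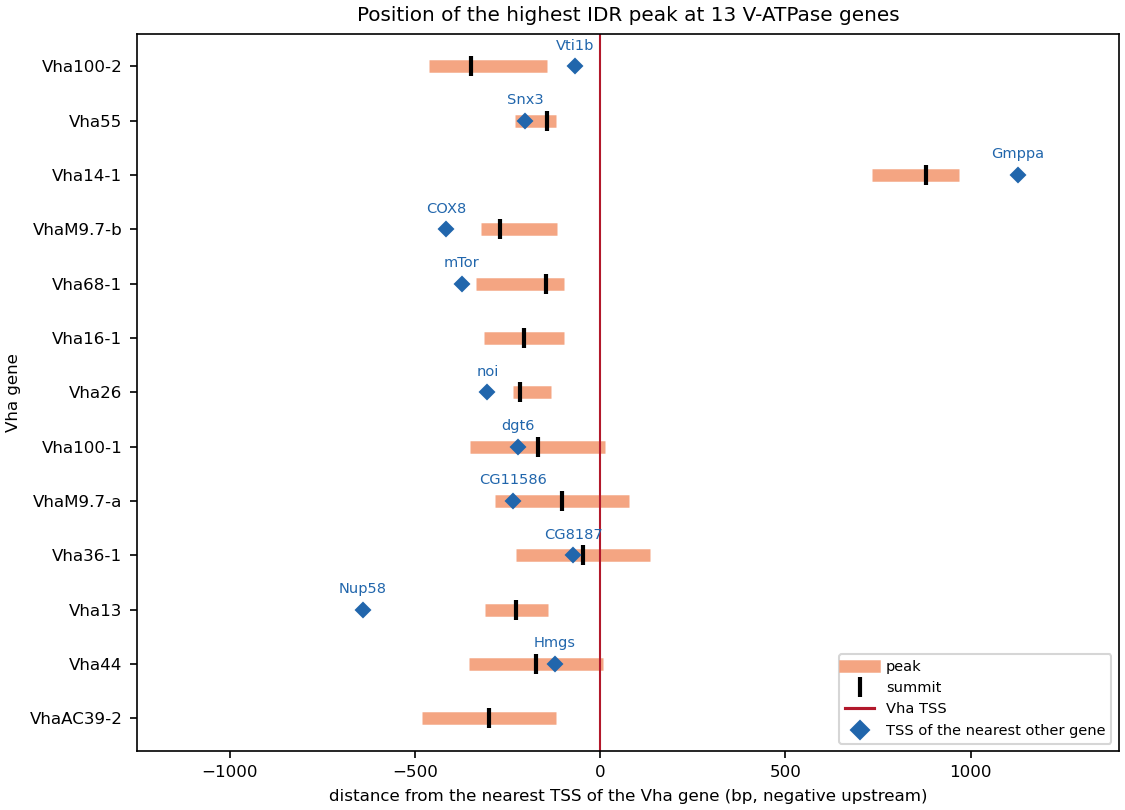
Position of the highest IDR peak (bar) and its summit (black tick) at the 13 Vha genes, from the nearest TSS of the Vha gene in its own direction of transcription (red line, in bp, negative upstream). Diamonds are the nearest other coding TSS within 1000 bp of the summit. At 12 genes the summit lies upstream, from -45 to -348 bp, and at Vha14-1 it lies 880 bp downstream, beside Gmppa.

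The sequences are shown for 7 of the 8 genes whose highest summit lay between both TSSs, since this is the stretch in which the summits fell. The gene not shown is Vha36-1, with its TSS 72 bp from that of CG8187. Its 101 bp summit window held 48.5% G and C and no match to the motifs searched. For 3 pairs each run is the plus strand of dm6 (RefSeq assembly) between, and without, the first base of either gene, and capitals mark motif matches.
Vha55 and Snx3, chr3R:12627830-12628030, summit at base 143: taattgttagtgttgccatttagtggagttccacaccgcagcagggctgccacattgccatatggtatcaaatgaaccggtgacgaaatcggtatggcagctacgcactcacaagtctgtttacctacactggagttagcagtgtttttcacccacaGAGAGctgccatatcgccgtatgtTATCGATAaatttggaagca
Vha100-1 and dgt6, chr3R:29130973-29131192, summit at base 53: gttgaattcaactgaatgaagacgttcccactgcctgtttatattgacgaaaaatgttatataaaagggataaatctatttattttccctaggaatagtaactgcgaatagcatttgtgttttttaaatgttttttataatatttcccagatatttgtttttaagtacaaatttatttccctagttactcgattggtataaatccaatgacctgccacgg
VhaM9.7-a and CG11586, chr3L:4262471-4262704, summit at base 132: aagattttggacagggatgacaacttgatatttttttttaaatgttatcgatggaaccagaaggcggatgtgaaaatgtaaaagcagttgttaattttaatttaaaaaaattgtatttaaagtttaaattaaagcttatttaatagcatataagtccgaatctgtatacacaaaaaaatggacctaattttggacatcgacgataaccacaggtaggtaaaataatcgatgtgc
For wider pairs the 101 bases centred on the summit are given, with the same use of capitals.
Vha68-1 and mTor, chr2L:13004202-13004302: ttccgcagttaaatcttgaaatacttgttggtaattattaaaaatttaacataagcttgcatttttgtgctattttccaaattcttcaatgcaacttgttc
VhaM9.7-b and COX8, chr3L:21539542-21539642: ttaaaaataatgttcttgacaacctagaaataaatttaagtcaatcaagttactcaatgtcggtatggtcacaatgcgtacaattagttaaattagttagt
Vha26 and noi, chr3R:5591498-5591598: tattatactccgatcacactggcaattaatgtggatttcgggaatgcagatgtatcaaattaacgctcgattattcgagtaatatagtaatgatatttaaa
Vha13 and Nup58, chr3R:19644564-19644664: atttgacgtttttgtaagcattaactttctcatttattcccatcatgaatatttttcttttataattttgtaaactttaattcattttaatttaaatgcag
The Vha55 interval held 1 match to TATCGATA, the DNA replication-related element (DRE) common in fly housekeeping promoters, and 1 to GAGAG, the core bound by GAGA factor. The other 6 runs held no match to any of the 6 motifs searched. Outside the 101 bases shown, the interval between Vha13 and Nup58 held 1 match to TATCGATA.

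The 13 genes had 17 distinct IDR promoter peaks, and the 101 bp windows at their summits were searched on both strands for these motifs. TGACNNNGC, the Cnc-Maf site, was found in 1 of 17 (5.88%), beside 2.61% of the 3832 IDR promoter windows and 2.73% of all 6153, and this 1 window was at Vha16-1. GAGAG was found in 2 of 17 (11.8%), at Vha55 and Vha100-2, beside 10.1% of promoter windows. TATCGATA was found in 1 of 17 (5.88%), beside 4.23%. TGANTCA, the AP-1 site, and CACGTG, the E-box, were in none of the 17, and by the limit of 3 counts, which is not the exact interval, a count of 0 allows a share of up to 17.6% for each, beside 2.17% and 1.02% of promoter windows. TCACGTGA, the core of the CLEAR element of lysosomal genes in mammals, contains the E-box and was likewise in none, beside 0.0522%. The windows of Vha peaks held a median of 31.7% G and C, and those of all IDR peaks 33.7%.

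Among the V1 genes the highest promoter peaks were at Vha55, Vha14-1 and Vha68-1, and for each of subunits A, D and F 1 gene of the copies had an IDR promoter summit. Vha55 (chr3R:12623762-12627829) encodes subunit B, the partner of the catalytic subunit in the ATP-hydrolysing head. Its peak (chr3R:12627949-12628058) reached 928 in the pooled list, rank 678, with 554 in replicate 1 and 357 in replicate 2. The summit was intergenic, 143 bp upstream of Vha55 and 59 bp upstream of Snx3, a sorting nexin gene.
The catalytic subunit A has 3 genes. Only Vha68-1 (chr2L:13000770-13004107) had an IDR promoter summit, with 678 in the pooled list, 334 in replicate 1 and 311 in replicate 2. This peak stood 145 bp upstream of Vha68-1 and 228 bp upstream of mTor, which encodes the Target of rapamycin kinase. Vha68-2 (chr2L:12974322-12978607), with 5 TSSs, had its highest promoter peak at 177 in the pooled list, rank 7483 and below the IDR list, with 92.7 in replicate 1 and 68.7 in replicate 2. Vha68-3 (chr2L:12978786-12981293), directly beside it, had no promoter summit in any of the 4 lists.

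The remaining V1 genes encode stalk and regulatory subunits. Vha14-1 (chr2R:15679426-15680084), encoding rotor subunit F, had a peak at 832, with 411 in replicate 1 and 408 in replicate 2. Its summit lay 880 bp from the TSS and past the 3′ end of this gene of 659 bp, 248 bp upstream of Gmppa, a GDP-mannose pyrophosphorylase gene. It was the only one of the 13 lost when the distance was set to 500 bp. Vha14-2 had no promoter summit in any list.
Vha26 (chr3R:5591763-5595356), for peripheral stalk subunit E, had a peak at 493, with 266 in replicate 1 and 231 in replicate 2. The summit was 215 bp upstream of Vha26 and 89 bp upstream of noi, a splicing factor gene.
Vha36-1 (chr2R:15541435-15542498), for rotor subunit D, had a peak at 389, rank 2719. It was ranked 3261 in replicate 1 (179.6) and 1400 in replicate 2 (279.6). Both TSSs lay close, with the summit 45 bp upstream of Vha36-1 and 27 bp upstream of CG8187. The other genes for subunit D, Vha36-2 and Vha36-3, had no promoter summit in any list.
Vha13 (chr3R:19643018-19644386), for peripheral stalk subunit G, had 3 IDR promoter peaks of 319, 307 and 301, at 228, 509 and 10 bp upstream, in the 640 bp that separate it from the nucleoporin gene Nup58. A single replicate 1 peak of 239 overlapped all 3. A replicate 2 peak of 215 overlapped those at 228 and 10 bp, and none overlapped the peak at 509 bp, so that peak was the only one of the 17 without an overlap in both replicates. The summit of the replicate 2 peak lay 16 bp downstream of the Vha13 TSS, so not between both TSSs.
Vha44 (chr2R:16324813-16336637), for subunit C, which leaves the complex when the sectors part, had the lowest IDR promoter peak among the V1 genes. It reached 233 at rank 5297, with 119 (rank 5241) in replicate 1 and 85.2 (rank 7802) in replicate 2. The summit was 174 bp upstream of the nearer Vha44 TSS and 51 bp into Hmgs, the HMG-CoA synthase gene, in its 5′ UTR. Vha44 was the only one of the 13 lost when only the TSS of the canonical transcript was used. VhaSFD (chr2L:16722883-16727826), for regulatory subunit H, had a pooled promoter peak of 149 at 12 bp downstream, rank 9384, outside the IDR list, with 81.8 in replicate 1 and 60.6 in replicate 2.

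Among the V0 genes subunit a, which forms the proton path with the rotor ring, had an IDR promoter summit at 2 of its 5 genes. Vha100-2 (chr3R:18390323-18399169) had the highest promoter peak of all 33 genes (chr3R:18397071-18397390), at 1450 and rank 249, with 806 (rank 289) in replicate 1 and 670.3 (rank 246) in replicate 2. By its promoter peak it took place 334 of the 7817 genes with a pooled promoter summit. The summit lay inside the Vha100-2 span, 348 bp upstream of its nearer TSS and 281 bp into Vti1b, a SNARE gene, in 5′ UTR sequence. Vha100-1 (chr3R:29131193-29137980), known for its role at synapses, had a peak at 487, with 264 in replicate 1 and 224 in replicate 2, 168 bp upstream of its TSS and 53 bp upstream of dgt6, an augmin gene. Vha100-5 (chr2L:11738948-11744524) had a pooled peak of 97.6, rank 16879, with 48.1 in replicate 2 and no promoter summit in replicate 1. Vha100-4, which lies beside Vha100-2, had a summit only in replicate 1 (29.9) and Vha100-3 none in any list.

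Subunit c is the proteolipid of the rotor ring. Vha16-1 (chr2R:6625242-6633090) had 3 IDR promoter peaks and no other coding TSS within 1000 bp of their summits. The highest, 206 bp upstream, reached 579.8, with 441 (rank 905) in replicate 1 and 144 (rank 3773) in replicate 2. The peak 267 bp downstream was ordered the other way between replicates, with 68.9 (rank 9730) in replicate 1 and 269 (rank 1498) in replicate 2, and 273 in the pooled list. The third, 517 bp downstream of the other of the gene's 2 TSSs, had 228 in the pooled list, 115 in replicate 1 and 102 in replicate 2. The replicates thus shared the gene and ranked its promoter peaks differently.
Vha16-1 was also the gene with the most IDR summits inside its span, 5 of the 7 found in all Vha genes, the other 2 being in Vha100-2. All 5 were intronic. The highest was not a promoter peak but stood 3905 bp downstream of the nearer TSS (chr2R:6628297-6628660), with 636 in the pooled list, 348 (rank 1321) in replicate 1 and 288 (rank 1326) in replicate 2. The other c genes had low values or none. Vha16-2 (94.0), Vha16-3 (77.6) and Vha16-4 (78.0) had pooled promoter peaks ranked between 17784 and 22991, and Vha16-5 had none in any list. Vha16-2 and Vha16-3 stand next to each other on 3L.

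The small membrane subunit e has 4 genes. VhaM9.7-b (chr3L:21539862-21541215) had a peak at 707, with 419 in replicate 1 and 299 in replicate 2, 270 bp upstream of its TSS and 145 bp upstream of COX8, a cytochrome c oxidase subunit gene. VhaM9.7-a (chr3L:4262705-4263464) had a peak at 435, with 279 in replicate 1 and 180.4 in replicate 2, 103 bp upstream, and 132 bp upstream of CG11586. VhaM9.7-c (chr3L:4186018-4186865) had a pooled peak of 184 at rank 7124, just below the IDR list. It ranked 11728 in replicate 1 (58.7) and 4041 in replicate 2 (137), so the replicates disagreed on its place. VhaM9.7-d had no promoter summit in any list.
Subunit d, which joins the ring to the central stalk, has 2 genes. VhaAC39-2 (chr3R:23158017-23159316) had the lowest IDR promoter peak of the 13 genes, 217 at rank 5741, with 118 in replicate 1 and 141 in replicate 2, 300 bp upstream and with no divergent partner. It lies 26263 bp from cnc itself. The extent of the transgene around cnc is not stated in the labels. VhaAC39-1 (chrX:3880748-3882967) had 86.8 in the pooled list, rank 19865, with 29.5 in replicate 1 and 47.7 in replicate 2.
The remaining ring and accessory genes had no IDR promoter summit. VhaPPA1-1 (chr3R:14902330-14904061), a further ring proteolipid, had 181 in the pooled list at rank 7294, with 89.4 in replicate 1 and 97.9 in replicate 2. VhaPPA1-2, beside it, had a promoter summit only in replicate 1 (32.5), and its nearest IDR summits lay outside the limit, at 1607 bp (529) and 1808 bp (848). VhaAC45 (chr2R:9207561-9209774), for the accessory subunit Ac45, had a pooled peak of 104 at rank 15380, with 79.2 in replicate 1 and 36.0 in replicate 2, although it has a divergent partner, Gnptab. VhaAC45RP had none in any list.

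Between 500 and 2000 bp the distance limit changed the place of 2 genes, Vha14-1 and VhaPPA1-2, while the signal limit changed more, since the whole pooled list added 10 Vha genes to the 13. Closest inside the limit of 1000 bp was Vha14-1 at 880 bp, and closest outside was a summit of Vha16-1 at 1113 bp (215). The lowest signal value of the IDR list was 206, between VhaAC39-2 (217) inside and VhaM9.7-c (184) outside. Of the 17 peaks, 16 overlapped a peak of both replicates by at least 1 bp, and 14 still did so with each replicate list taken to its highest 6153. At the highest peak of each gene, the replicate summits lay a median of 14.5 bp from the pooled summit, and 22 of 26 lay within 60 bp. The IDR list was itself thresholded for agreement between these replicates, so such overlap is partly built in. The corresponding values over all IDR peaks were not computed, so these counts say nothing particular to Vha peaks. For genes with no IDR promoter summit, the values above are the highest promoter peak of each list, which need not be the same peak. In all, 8 Vha genes had no promoter summit in any of the 4 lists. They were Vha100-3, Vha14-2, Vha16-5, Vha36-2, Vha36-3, Vha68-3, VhaAC45RP and VhaM9.7-d, and 2 of them, Vha16-5 and Vha36-3, have a divergent partner. The share of all protein-coding genes with no promoter summit in any of the 4 lists was not computed. In the pooled list alone, 10 of 33 Vha genes had none, beside 6128 of 13945 protein-coding genes.

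**Figure D3:**
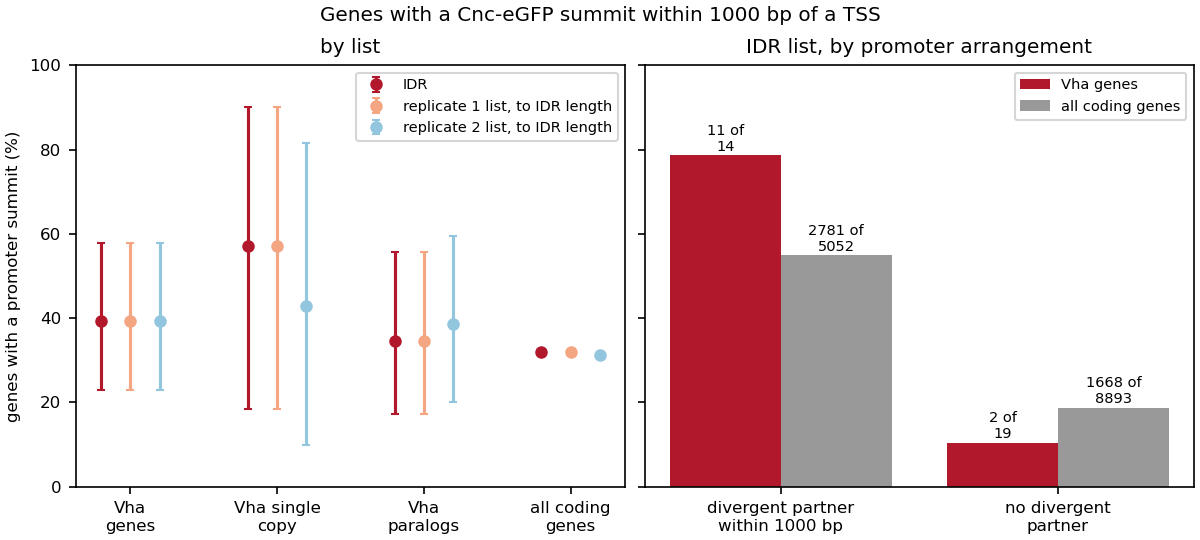
Left, percentage of genes with a summit within 1000 bp of a TSS in the IDR list and in the highest peaks of each replicate list to the same length, with exact 95% binomial intervals, for Vha genes, their single-copy and paralog classes and all protein-coding genes. Right, the IDR percentage by whether a gene has an opposite-strand coding TSS within 1000 bp upstream, where Vha genes with such a partner reach 78.6% (11 of 14) and those without 10.5% (2 of 19), beside 55.0% and 18.8% of all coding genes.

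Other genes that act with the pump were counted the same way, from lists set up with earlier results of these data known, against the 31.9% of all genes. Of genes for V-ATPase assembly and regulation, 4 of 4 had an IDR promoter summit. These were mtd (466), which encodes a TLDc-domain protein, the rabconnectin genes Rbcn-3B (397) and Rbcn-3A (353), and Mitf (260.0), whose product is known as an activator of V-ATPase genes in the fly. The Rbcn-3B summit lay at -959 bp from its TSS, close to the limit of 1000 bp. In the highest 6153 peaks of each replicate list, 3 of 4 had a promoter summit in replicate 1 and 4 of 4 in replicate 2. With IDR peaks above that list's median signal value only, 2 of 4 had one. Of lysosomal enzyme and membrane protein genes, 10 of 17 had an IDR promoter summit (58.8%). The highest were at the cathepsin gene CtsL1 (1161), the hexosaminidase gene Hexo2 (643), the cathepsin gene cathD (571) and the thioesterase gene Ppt1 (538). The CtsL1 peak also counted for the proteasome gene Rpn13, with its summit 318 bp upstream of CtsL1 and 31 bp upstream of Rpn13. A further peak, of 470.2, counted for both a lysosomal gene and a proteasome gene. Of nutrient sensing genes at the lysosome, 5 of 13 did (38.5%), with Lamtor3 (2512), Rheb (752), mTor (678, the Vha68-1 peak) and RagA-B (656) highest. Of ion transport partners 3 of 9 did (33.3%), the exchanger genes Nhe3 (992) and Nhe2 (579) and the chloride channel family gene ClC-c (219.9).
Set beside other complexes, the Vha share of 39.4% was close to that of mitochondrial ATP synthase genes, the related rotary enzyme, at 6 of 15 (40.0%). The proteasome genes, testis copies included, had 29 of 48 (60.4%) and the autophagy genes 15 of 20 (75.0%). These differences were not tested. Other distances and the rule of the nearest coding TSS were not applied to any of these other gene lists.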

How the data were processed

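Peak lists in narrowPeak layout were deposited for 2 biological replicates, for both pooled, and as an IDR list derived from the replicate lists and from another list that was not analysed here, per the labels and the deposited file lists. Peaks were called against a control, which was not analysed here. The sources used here name no peak caller, aligner or IDR threshold. The signal value, a score of the authors, and the −log10 q value of each peak were used as deposited. The deposited p-value column holds no values. The dm3 lists were not used, since genes were placed on dm6.

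Genes and TSSs came from Ensembl release 115 and sequence from the RefSeq genome of the dm6 build. Summits were assigned to TSSs within 1000 bp, in Python 3.11.15 with scipy 1.17.1 and checked on planted peaks. A replicate value given for an IDR peak is the highest overlapping peak of that list (at least 1 bp), and for a gene with no IDR promoter summit it is the highest promoter peak of that list. Motif windows reached 50 bp either side of the summit. Exact binomial intervals cover counting error over genes or peaks only. No test was run, because there was 1 group and genes are not replicates. Every Vha gene is named, with neighbours within 1000 bp of a summit and up to 4 genes of each other list. The name Tor was read as mTor. Members and lists were chosen with earlier results of these data known. Alternatives covered the distance, the TSS set, the gene assignment, the peak list, each replicate left out, overlap rules and motif windows.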

Additional observations from a re-analysis of the deposited data

How the results depend on the processing

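The Vha share with an IDR promoter summit, 39.4%, lay between 36.4% and 42.4% with other distances, with canonical TSSs and with any base of the peak. All genes gave 28.4% to 36.9% in these settings. With IDR peaks above that list's median signal value only, the Vha share was 30.3%, beside 20.3% of all genes. With the nearest coding TSS only it was 15.2% (single-copy genes 14.3%, paralogs 15.4%), beside 23.0% of all genes, because 8 Vha genes then lost their peaks to a nearer neighbour. Of Vha genes with a divergent partner 21.4% then had a summit, beside 31.6% of all such genes. The order of the main split, 78.6% beside 55.0%, thus turned. The whole pooled list, which is longer, gave 69.7% (paralogs 65.4%), beside 56.1% of all genes. Leaving out a replicate gave 39.4% both times for all Vha genes, 42.9% to 57.1% for single-copy genes, 34.6% to 38.5% for paralogs, 71.4% to 78.6% with a divergent partner and 10.5% to 15.8% without. Over all genes it gave 31.2% to 32.0%, with 54.1% to 55.8% for those with a divergent partner and 18.2% to 18.6% without. With single copy defined by subunit, 4 of 5 single-copy genes and 9 of 28 others had a summit. The median signal value was 233 in the pooled list, beside 246 of all genes with a summit, so the order of the main value turned there. It was 489.7 within 500 bp (all genes 448) and 536 within 2000 bp (all genes 463). Both replicates had a summit within 100 bp of 70.6% of the Vha promoter peaks, and the share over all IDR peaks was not computed. In the shorter windows of 25 bp either side, the shares with the Cnc-Maf motif and with the DRE were both 0. By the limit of 3 counts this allows up to 17.6% of 17 windows, beside 1.02% and 1.28% of all IDR windows. With 100 bp either side, the Cnc-Maf motif was in 2 of 17 (11.8%), beside 5.95% of all IDR windows. There the DRE was in 1 (5.88%, beside 5.17%) and GAGAG in 4 (23.5%, beside 21.8%). The split by divergent partner and its alternatives were chosen after seeing the data. Of 57 alternatives, 45 stayed within the interval of the main value. Those of the median signal value had no interval and counted as moved unless equal to the main value. Some intervals are wide, such as 18.4 to 90.1% for single-copy genes, so this count is no measure of stability. No paired analysis was possible because there was 1 group. Depth is unknown, so weaker binding cannot be told from fewer reads.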

Other observations

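For 8 subunits with several genes, 1 copy each is known to prevail in Malpighian tubules and other epithelia, and the list of these copies was written after the values were seen. Of these 8, 5 had an IDR promoter summit (Vha100-2, Vha14-1, Vha16-1, Vha36-1 and VhaM9.7-b), and all 8 had a promoter summit in the pooled list. Of the 18 other copies, 4 had an IDR promoter summit (Vha100-1, Vha68-1, VhaAC39-2 and VhaM9.7-a) and 9 a pooled one. Over all protein-coding genes the shares were 31.9% in the IDR list and 56.1% in the pooled list. With each IDR summit given only to its nearest coding TSS, Vha16-1 alone of the 5 kept one. Of the 4, Vha68-1, VhaAC39-2 and VhaM9.7-a kept one. The share over all genes was then 23.0%. Divergent partners were also unequal between these sets, with 4 of the 8 and 5 of the 18. Their part in the counts was not tested.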
